A study of Homo sapiens with 6 samples.

Results

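The genes described are 40 genes of the MYC network and of ribosome biogenesis, chosen by symbol, among 59248 gene symbols in the table. They and the further lists below were chosen with earlier results of these data known, so their shares called are descriptions. All 40 were present and all passed the expression filter. Their RNA levels were compared between 3 libraries of Jurkat KO-1 cells labelled PDCD1-28 OE, which overexpress a PD-1 splicing isoform that keeps bases from the start of an intron, and 3 libraries of Jurkat KO-1 cells with the vector. Jurkat is an established human T-cell leukemia line. Both groups were grown in RPMI1640 medium with serum, and both carry whatever the addition KO-1 stands for, which the labels used here do not explain. The labels do not say whether the cells of a group were 1 clone or a pool, or whether the numbered libraries came from separate cultures. The p-values therefore reflect only how far these libraries spread, which may be technical.

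MYC is a transcription factor that binds DNA as a dimer with MAX, most tightly at the E-box sequence CACGTG, and many of its known target genes serve cell growth. Ribosome production starts in the nucleolus, where RNA polymerase I transcribes the precursor of the large ribosomal RNAs. Small nucleolar ribonucleoproteins (snoRNPs) modify this precursor, and assembly factors fold, cut and package it into the small (40S) and large (60S) subunits. In T cells the pathway is known to run fast in growing and activated cells.

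The sequences around the start of transcription are shown because MYC and MAX are known to bind E-boxes there. The members were chosen by name, as genes of the MYC network and of ribosome biogenesis. Such a list can hold known MYC targets, so its share of E-boxes is not independent of the choice. RefSeq windows (GRCh38.p14) from 250 bases before to 50 bases after each annotated start were found for 32 of the 40 members. The windows of MYC, TCOF1, NOLC1, NOP58, RRP12, BOP1, RRP1B and RRS1 were not used here. The E-box CACGTG reads the same on both strands. It occurred in at least 1 window of 14 of the 32 members (43.8%), against 12.1% of 12114 other genes tested and 8.77% of all 27305 genes with a window. Within 50 bases on either side of the start it occurred in 13 members (40.6%), against 4.93% of the other genes tested. The windows had a median GC content of 63.8% in the members and 64.2% in the other genes tested. The parts from 200 bases before to 30 bases after the start are printed 5′ to 3′ for the 3 members with an E-box that fell most (UTP20, WDR43 and GNL3), for NOP10, which rose, and for NOP56, a member that fell and had no such letters in its window; capitals mark CACGTG. Their positions are chr12:101279905-101280134 (plus strand) for UTP20, chr2:28894467-28894696 (plus strand) for WDR43, chr3:52685832-52686061 (plus strand) for GNL3, chr15:34343107-34343336 (minus strand) for NOP10 and chr20:2652432-2652661 (plus strand) for NOP56.
UTP20: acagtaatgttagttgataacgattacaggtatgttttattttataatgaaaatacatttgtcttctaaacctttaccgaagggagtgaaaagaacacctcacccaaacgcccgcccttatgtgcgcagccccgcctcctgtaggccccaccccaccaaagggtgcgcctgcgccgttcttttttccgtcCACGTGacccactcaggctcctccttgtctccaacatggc
WDR43: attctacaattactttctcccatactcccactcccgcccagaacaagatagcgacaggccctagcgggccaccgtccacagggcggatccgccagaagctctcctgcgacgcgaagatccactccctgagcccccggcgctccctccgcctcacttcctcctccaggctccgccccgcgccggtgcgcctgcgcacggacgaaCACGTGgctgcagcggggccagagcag
GNL3: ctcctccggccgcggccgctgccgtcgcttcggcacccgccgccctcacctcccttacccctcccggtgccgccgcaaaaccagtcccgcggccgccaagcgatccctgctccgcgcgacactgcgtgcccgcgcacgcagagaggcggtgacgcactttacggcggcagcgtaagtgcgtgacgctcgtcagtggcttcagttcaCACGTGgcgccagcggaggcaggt
NOP10: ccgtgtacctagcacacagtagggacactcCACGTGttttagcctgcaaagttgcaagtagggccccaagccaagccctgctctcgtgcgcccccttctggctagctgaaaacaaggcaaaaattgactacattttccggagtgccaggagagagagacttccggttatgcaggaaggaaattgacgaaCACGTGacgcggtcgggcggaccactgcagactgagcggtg
NOP56: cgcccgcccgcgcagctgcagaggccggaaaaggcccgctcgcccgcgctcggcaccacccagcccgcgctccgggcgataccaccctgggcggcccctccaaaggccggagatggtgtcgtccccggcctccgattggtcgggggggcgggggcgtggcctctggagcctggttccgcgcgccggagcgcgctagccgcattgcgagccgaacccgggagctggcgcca

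In UTP20 the E-box began 10 bases before the start, in WDR43 at base 4 and in GNL3, in 1 of its 2 windows, at base 7 of the transcript. NOP10 held 2, which began 170 and 11 bases before the start. Of the 14 members with an E-box, 10 fell, 1 rose and 3 were not called, with a median log2 fold change of -0.43. Of the 18 without one, 17 fell and 1 rose, with a median of -0.63. A match to these letters is a description and not a measured binding site.

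**Figure D1:**
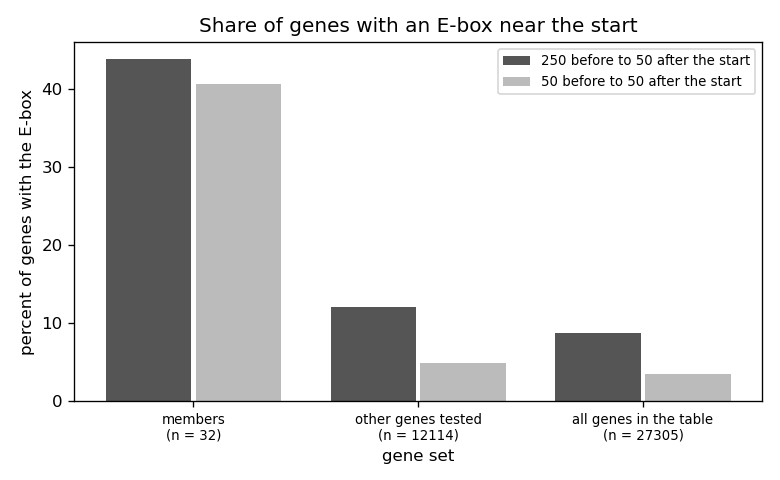
Percent of genes with CACGTG in a RefSeq promoter window (y axis), for the 32 members with a window, 12114 other genes tested and all 27305 genes with a window; dark bars are the whole window and light bars the 100 bases around the start. The share was 43.8% in the members and 12.1% in the other genes tested.

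Libraries held 59911578 to 84220970 estimated counts in all. Levels are given as CPM, estimated counts brought to a common library size after TMM scaling, which adjusts for differences in RNA composition. PDCD1 was at 14.6, 14.2 and 12.6 CPM in the overexpression libraries and at 0.241, 0.223 and 0.222 CPM in the vector libraries, as labelled; this level covers every PDCD1 transcript, with or without the retained bases. Overexpression and vector parted on the first principal component (76.9% of the variance), while vector replicate 2 stood apart on the second (9.94%). Of 12 T-lineage markers, all were detected, 7 fell and 2 rose, beside 23.4% and 22.6% of all genes tested. Their summed level was 3264 to 3313 CPM in overexpression and 3569 to 3675 CPM in vector. The sum hides larger shifts of single markers: CD7 averaged 17.5 CPM in overexpression and 74.4 CPM in vector (log2 fold change -2.09 ± 0.09, SE). In PTPRC (CD45) vector replicate 2 lay near the overexpression libraries. These were at 376, 377 and 363 CPM, against 688, 382 and 713 CPM in the vector libraries. LAT was at 55.7, 56.6 and 56.5 CPM in overexpression and 110.4, 70.8 and 123 CPM in vector. Of 20 markers of other cell types, 13 did not pass the expression filter, and EPCAM, NCR1 and COL1A2 were at 0 in every library. The 20 summed to 42.6 to 46.5 CPM in overexpression and 134 to 150.2 CPM in vector, of which all but 5.44 to 6.39 CPM and 8.14 to 9.64 CPM were PECAM1; 4 of the 7 tested fell and 2 rose. The part of these marker shifts in the results was not tested.

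Most of the 40 genes were lower with the isoform. In edgeR's quasi-likelihood test with Benjamini-Hochberg adjustment over all 21055 genes tested (threshold 0.05), 34 of the 40 fell (85.0%), 2 rose (MAX and NOP10) and 4 were not called (NOP58, RRP9, PES1 and NOP2). Among all genes tested, 23.4% fell and 22.6% rose, 46.1% in all; with library totals in place of TMM factors, 60.2% of all calls were higher against 49.1% with TMM. The median log2 fold change was -0.60 over the members and 0.016 over all genes tested. The gap between members and all genes is described and not tested, because the list was chosen with earlier results known. In 37 members all 3 overexpression libraries lay below all 3 vector libraries, as did 28.6% of the genes tested, and in 2 they lay above, as did 30.1%. NOP2 was the member whose groups overlapped. In RRP9, counted among the 37, the groups touched at the digits given, with 46.2 CPM in overexpression replicate 3 and in vector replicate 1.

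The falls were mostly moderate. Of the 34, 4 fell at least 2-fold (MYCN, PPAN, UTP20 and NOLC1), 17 fell between 1.5-fold and 2-fold and 13 fell by less than 1.5-fold. The summed level of the 40 was 5322, 5353 and 5319 CPM in overexpression and 7670.1, 8929 and 7730.4 CPM in vector, a ratio of 0.657. The overexpression libraries lay close together and vector replicate 2 was the highest. The 20 members of higher mean level had a median log2 fold change of -0.62 and the other 20 one of -0.55. CPM is relative to all RNA sequenced, so a fall of these transcripts and a rise of other RNA cannot be told apart. Each library pools many cells, so less of these transcripts per cell and fewer cells with them cannot be told apart either.

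**Figure D2:**
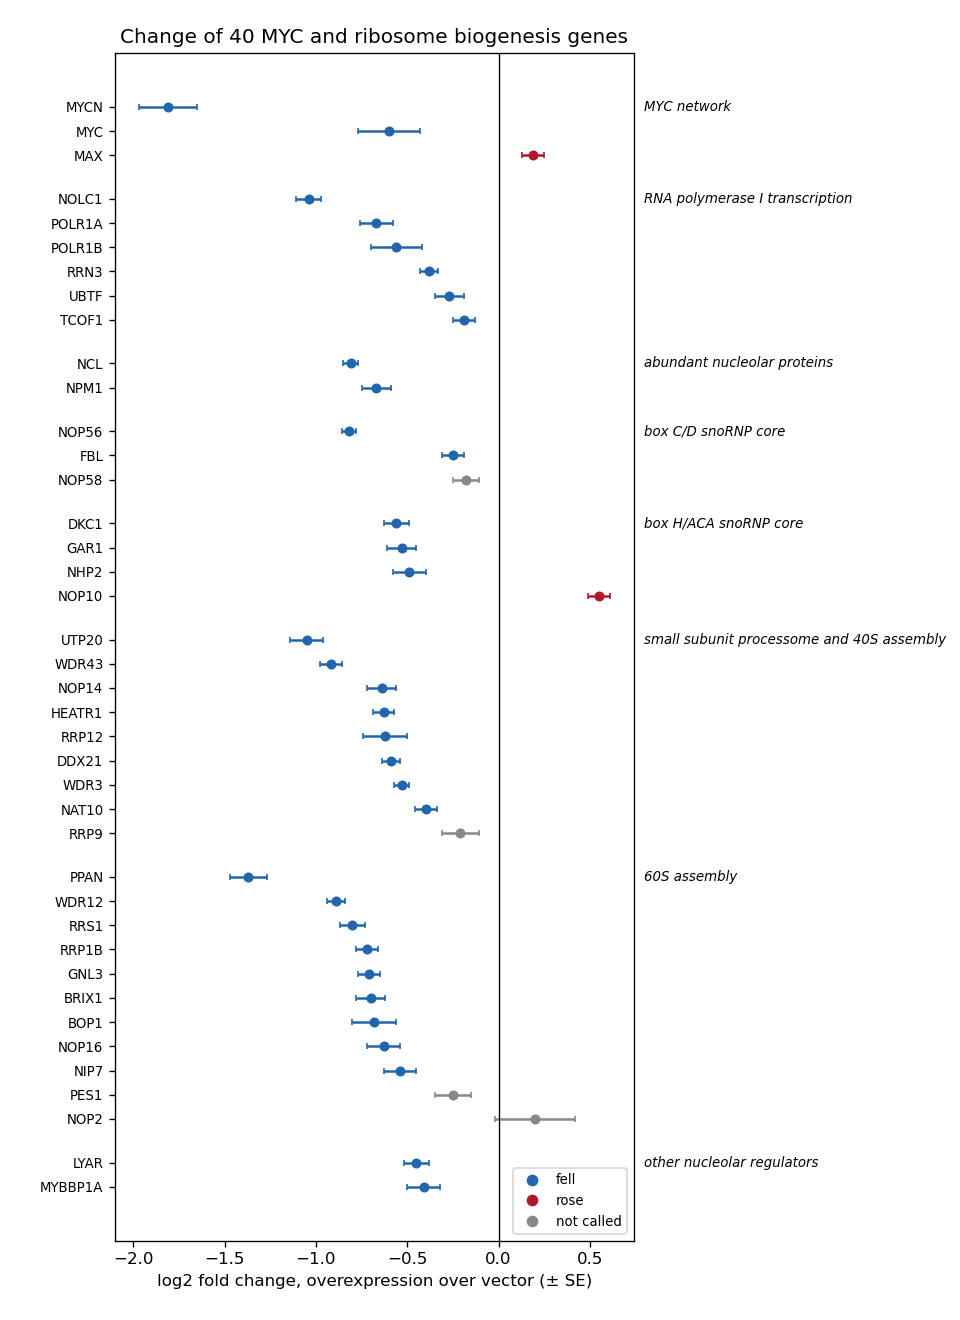
Log2 fold change of overexpression over vector (x axis) with its standard error for each of the 40 members, grouped by role; blue marks genes that fell, red genes that rose and grey genes not called. Values ran from -1.81 for MYCN to 0.55 for NOP10.

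Vector replicate 2 stood above the other vector libraries for most members. It was the highest vector library for 35 of the 40 members, against 39.8% of all genes tested. Its level over the mean of the other vector libraries had a median of 1.15 among the members, from 0.904 for NIP7 to 1.63 for MYC, against 0.988 over 9463 genes above 10 CPM in every library. Without this library 36 members fell and 2 rose, with a median log2 fold change of -0.53, while 25.4% of all genes tested fell. The coefficient of variation between replicates had a median of 3.52% in overexpression and 8.44% in vector over the members.

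**Figure D3:**
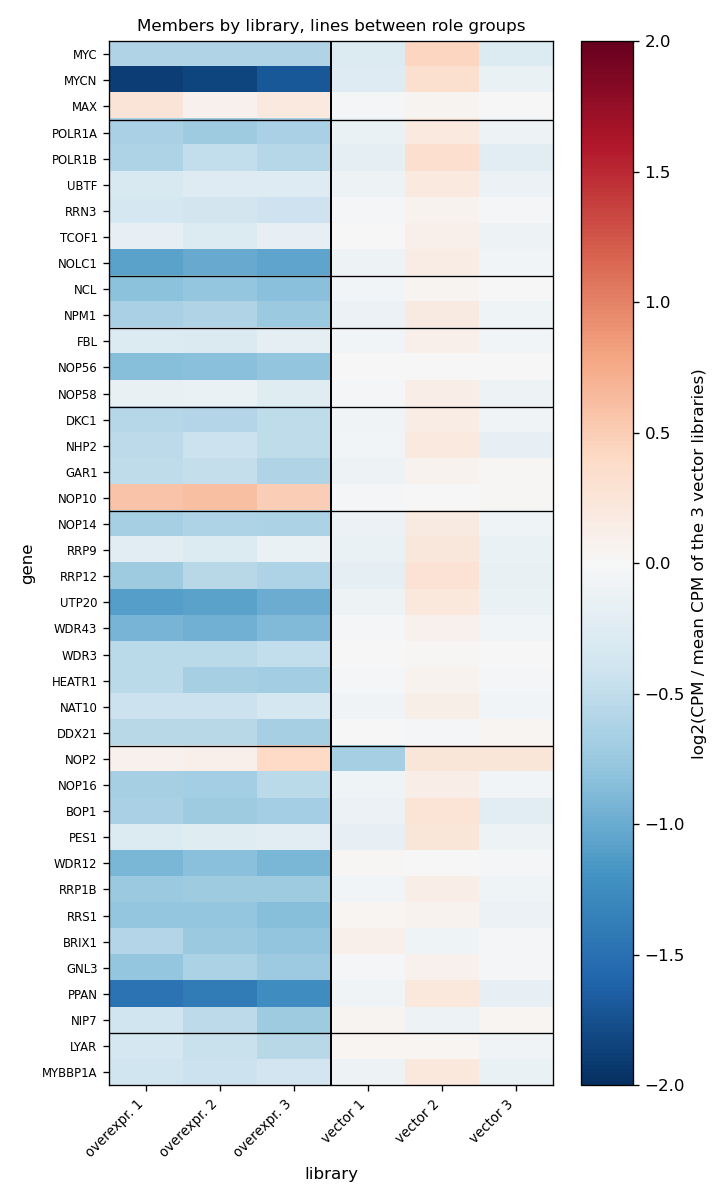
Level of each member (rows, in role groups) in each library (columns, overexpression left of vector) as log2 of CPM over the mean CPM of the 3 vector libraries; blue is lower and red higher. The overexpression columns are blue except for MAX, NOP10 and NOP2, and vector replicate 2 is the reddest vector column for most genes.

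The MYC network moved in both directions: MYC and MYCN fell and their partner MAX rose. MYC was at 303, 303 and 304 CPM in overexpression and at 381, 620.4 and 381 CPM in vector. All 3 overexpression libraries lay below the lowest vector library, and vector replicate 2 stood far above the other vector libraries. The fall of MYC was 1.52-fold (log2 fold change -0.60 ± 0.17, SE; edgeR adjusted p = 0.0216). Without vector replicate 2 it was smaller, at -0.34 ± 0.03 (adjusted p = 1.14e-05). Without overexpression replicate 1, 2 or 3 the change was -0.61, -0.60 and -0.61 and was not called (adjusted p = 0.0698, 0.0706 and 0.0729).

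MYCN, a MYC family member better known from the nervous system and its tumors, was at 6.51, 6.73 and 7.38 CPM in overexpression and at 20.1, 30.1 and 21.8 CPM in vector (chromosome 2, 15940564 to 15947007, plus strand, hg38). The groups lay far apart, and the fall was 3.50-fold, the largest among the members (log2 fold change -1.81 ± 0.16, SE; edgeR adjusted p = 7.37e-05). MYCN was nevertheless a minor transcript: per kilobase of the longest annotated transcript its level was 2.64 CPM in overexpression and 9.24 CPM in vector, where MYC had 128 and 195 CPM per kilobase. MAX was at 131, 116 and 125 CPM in overexpression and at 106, 113 and 108 CPM in vector. The groups did not overlap but nearly touched (log2 fold change 0.19 ± 0.06, SE; edgeR adjusted p = 0.0275). The rise of MAX was not called without overexpression replicate 1 or 3 (0.15 and 0.18; adjusted p = 0.119 and 0.092) or without vector replicate 1 or 3 (0.16 and 0.17; adjusted p = 0.101 and 0.0891), nor with the replicate number as a block (0.19; adjusted p = 0.0716) or with no expression filter (0.17; adjusted p = 0.0811).

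Of 15 further genes of the MYC, MAX and MXD network, 5 fell, 3 rose and 7 were not called, with a median log2 fold change of 0.05, beside 23.4% fallen and 22.6% risen among all genes tested; with so few genes this is not read as a result about the list. WDR5, a chromatin protein that MYC binds, averaged 77.6 CPM in overexpression and 138 CPM in vector (-0.83 ± 0.05, SE), and MYCL, another MYC family gene, lay at 5.42 to 6.15 CPM in overexpression and 10.1 to 13.7 CPM in vector (-1.07 ± 0.15). MXD1, a MAX partner that opposes MYC, rose, with 16.3 CPM in overexpression and 11.5 CPM in vector (0.50 ± 0.11). Of 25 MYC target genes in nucleotide, polyamine and other synthesis, 16 fell and 1 rose, with a median of -0.40. HSPD1, the mitochondrial HSP60 chaperonin, averaged 479 CPM in overexpression and 1238 CPM in vector (-1.37 ± 0.04), ATIC, an enzyme of purine synthesis, 108 and 187 CPM (-0.80 ± 0.05), and RUVBL2, an AAA+ ATPase and the gene that rose, 294 and 227 CPM (0.37 ± 0.04). Of these, HSPD1 and RUVBL2 are not synthesis enzymes. Without vector replicate 2, 3 genes of this list rose.

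**Figure D4:**
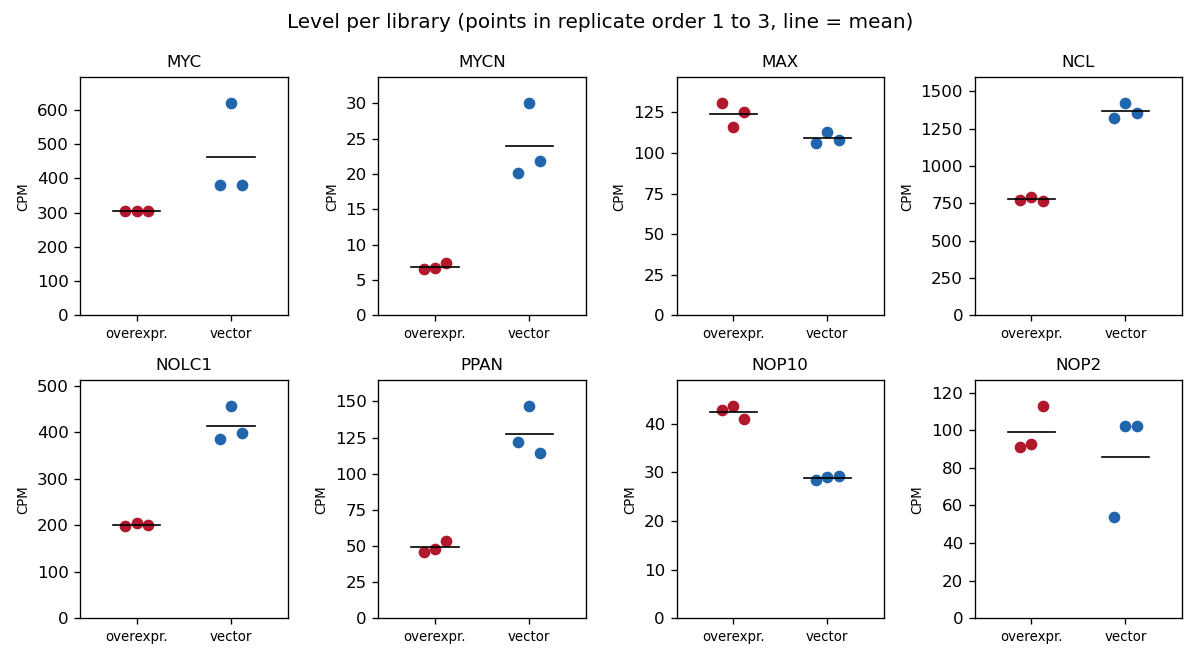
CPM (y axis, from 0) in each library for 8 members, with overexpression (red) left of vector (blue), points in the order of the replicate numbers and a line at the mean. MYC was at 303 to 304 CPM in overexpression and 381 to 620.4 CPM in vector; NOP10 and MAX were higher in overexpression, and the groups of NOP2 overlapped, with vector replicate 1 at 54.0 CPM.

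All 6 genes of RNA polymerase I transcription and its nucleolar cofactors fell. NOLC1 (Nopp140), a phosphoprotein that links snoRNPs to the nucleolus, was at 198, 205 and 200.2 CPM in overexpression and at 386, 457 and 399 CPM in vector. The groups lay about 2-fold apart, further than any spread within them (log2 fold change -1.04 ± 0.07, SE; edgeR adjusted p = 1.44e-05). RRN3 (TIF-IA), the factor that makes polymerase I competent to start, was at 93.6, 93.0 and 89.6 CPM in overexpression and at 116, 125 and 118 CPM in vector (-0.38 ± 0.05, SE; edgeR adjusted p = 0.000442). The pseudogenes RRN3P1 and RRN3P3, between which reads of RRN3 could be split, held at most 101 estimated counts in any library. The polymerase subunit genes POLR1A and POLR1B averaged 132 and 48.9 CPM in overexpression and 210.2 and 71.9 CPM in vector.

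The remaining calls of this group were weaker. POLR1B had a log2 fold change of -0.56. Leaving out overexpression replicate 1 ended its call (-0.53; adjusted p = 0.0512), and leaving out vector replicate 2 made it -0.36. UBTF, which shapes the active rDNA chromatin, averaged 224 CPM in overexpression and 271 CPM in vector (-0.27 ± 0.08, SE), or -0.17 without vector replicate 2; any overexpression library left out (replicate 1, 2, 3) ended its call (adjusted p = 0.0939, 0.0753 and 0.0764). TCOF1 (treacle), a cofactor of UBTF, averaged 164 CPM in overexpression and 187 CPM in vector (-0.19 ± 0.06, SE), and its call ended when any overexpression library (adjusted p = 0.0804, 0.138 and 0.0696) or vector replicate 1 (adjusted p = 0.0784) was left out, and under the replicate block (adjusted p = 0.0789). Both calls also ended with library totals, upper-quartile factors or no expression filter. Without overexpression replicate 1, 3 of the 6 genes fell. Of 32 further genes of RNA polymerases I and III, 16 fell and 4 rose (median -0.16), beside 23.4% and 22.6% of all genes tested. POLR1H, a small polymerase I subunit, was the clearest to rise, at 43.6, 45.1 and 47.6 CPM in overexpression and 21.0, 22.5 and 24.7 CPM in vector (log2 fold change 1.00 ± 0.08, SE), followed by POLR3GL (0.70 ± 0.08), while GTF3C2 and POLR1F both had log2 fold changes of -0.58 ± 0.05.

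NCL and NPM1, the genes of the abundant nucleolar proteins nucleolin and nucleophosmin, both fell. NCL was at 771, 795 and 769 CPM in overexpression and at 1319.6, 1424 and 1354 CPM in vector (chromosome 2, 231453531 to 231483641, minus strand, hg38). NPM1 was at 466, 480.1 and 436 CPM in overexpression and at 678, 829 and 688 CPM in vector. For both genes the gap between the groups exceeded the range within either; the falls were 1.75-fold and 1.59-fold (log2 fold changes -0.81 ± 0.04 and -0.67 ± 0.08, SE; edgeR adjusted p = 6.15e-06 and 0.000327). Per kilobase of longest transcript these were the members of highest level in vector, at 416 CPM for NPM1 and 339 CPM for NCL, and also in overexpression, at 262 and 193 CPM. MYC, FBL, NOP56 and NOLC1 followed in vector with 195, 172, 124 and 104 CPM per kilobase. NPM1 has many processed pseudogenes. Together 45 such rows held 892 to 1058 estimated counts per library in overexpression and 1079 to 1843 in vector, small beside the 27854 to 35734 and 39283 to 66870 counts of NPM1 itself.

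The box C/D snoRNP carries the methylation of ribosomal RNA, with FBL (fibrillarin) as methyltransferase and NOP56 and NOP58 as its paired scaffold. NOP56 was at 204, 208 and 215 CPM in overexpression and at 370.2, 370.2 and 369 CPM in vector. Vector libraries were nearly equal here, including vector replicate 2, and all lay above the overexpression libraries (log2 fold change -0.82 ± 0.04, SE; edgeR adjusted p = 5.07e-06). FBL was at 201, 197 and 211 CPM in overexpression and at 232, 260.1 and 233 CPM in vector, a smaller fall (-0.25 ± 0.06, SE; edgeR adjusted p = 0.00796) that was not called with library totals in place of TMM factors (-0.15; adjusted p = 0.0592) and was -0.42 with an offset for GC content and length. NOP58 was at 107, 108 and 100.2 CPM in overexpression and at 116, 130.1 and 111 CPM in vector. Its groups did not overlap, but the difference was not called (log2 fold change -0.18, 95% interval -0.33 to -0.02; edgeR adjusted p = 0.0611), except without vector replicate 2 or 3 (-0.12 and -0.24; adjusted p = 0.0495 and 0.0323) and with DESeq2 (-0.19; adjusted p = 0.0326). The change of NOP56 and that of NOP58 were not tested against each other.

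The box H/ACA snoRNP isomerises uridine to pseudouridine, with DKC1 (dyskerin) as the catalytic subunit and NHP2, GAR1 and NOP10 as its partners. DKC1 was at 139, 137 and 144 CPM in overexpression and at 195, 227 and 195 CPM in vector, 1.47-fold lower (log2 fold change -0.56 ± 0.07, SE; edgeR adjusted p = 0.000296). GAR1 and NHP2 fell as well, by 0.53 and 0.49 on the log2 scale. NOP10 went the other way, at 42.8, 43.7 and 40.9 CPM in overexpression and 28.4, 29.1 and 29.3 CPM in vector (chromosome 15, 34341713 to 34343177, minus strand, hg38). The groups of NOP10 were tight and far apart, with a 1.47-fold rise (log2 fold change 0.55 ± 0.06, SE; edgeR adjusted p = 0.000158), or 0.29 with the GC and length offset, under which the change of NHP2 was -0.74. NOP10 has the shortest transcript of the members, at 554 bases. Of 13 snoRNP assembly factors, 6 fell, 3 rose and 4 were not called, with a median of -0.12. Among all genes tested 23.4% fell and 22.6% rose. With so few genes the counts are not read as a result about the list. SHQ1, an assembly chaperone of DKC1, averaged 80.9 CPM in overexpression and 140.4 CPM in vector (-0.80 ± 0.08), whereas GEMIN2 and COIL, of the SMN complex and the Cajal body, had log2 fold changes of 0.75 ± 0.12 and 0.55 ± 0.09. TGS1, also of this list, fell by 0.44 on the log2 scale. In this list 3 genes fell without overexpression replicate 2 or vector replicate 3.

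Of 9 genes of the small subunit processome and 40S assembly, 8 fell. UTP20, a large scaffold of the processome, was at 57.7, 59.1 and 62.3 CPM in overexpression and at 116, 143 and 113 CPM in vector (log2 fold change -1.05 ± 0.09, SE; edgeR adjusted p = 5.74e-05). WDR43, a processome subunit, was at 65.8, 64.5 and 68.4 CPM in overexpression and at 122, 134 and 121 CPM in vector (-0.92 ± 0.06, SE; edgeR adjusted p = 1.16e-05). DDX21, an RNA helicase of polymerase I and rRNA processing, was at 269, 271 and 249 CPM in overexpression and at 393, 391 and 406 CPM in vector (-0.59 ± 0.05, SE). In each of these genes the lowest vector library lay well above the highest overexpression library, and for DDX21 vector replicate 2 was the lowest of its group. The processome genes NOP14, HEATR1, RRP12 and WDR3 fell by 0.64, 0.63, 0.62 and 0.53 on the log2 scale, and NAT10, which acetylates cytidines of 18S rRNA, by 0.40. RRP9, a protein of the U3 snoRNP, was at 43.5, 41.7 and 46.2 CPM in overexpression and at 46.2, 59.2 and 46.3 CPM in vector and was not called (-0.21, 95% interval -0.44 to 0.03; edgeR adjusted p = 0.13), except with the GC and length offset (-0.29; adjusted p = 0.0158). Without vector replicate 2 the value was -0.09, and with library totals -0.11.

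Most other processome and 40S assembly genes fell as well. Of 43 further genes, 32 fell, 1 rose and 10 were not called, with a median log2 fold change of -0.41. For this list and the next, the shares among all genes tested were 23.4% fallen and 22.6% risen. TSR1, a 40S maturation factor, averaged 83.4 CPM in overexpression and 161 CPM in vector (-0.95 ± 0.04, SE), and DDX47, a helicase of the processome, 50.1 and 93.5 CPM (-0.90 ± 0.05). KRR1 was the gene that rose, by a small amount (0.15 ± 0.05; edgeR adjusted p = 0.0447), and 0 of the 43 rose when overexpression replicate 1 or 2, or vector replicate 1 or 3, was left out. In the RNA exosome and rRNA trimming list, 10 of 17 genes fell and 2 rose (median -0.31), with EXOSC2 and ERI1 at -0.66 ± 0.05 and -0.57 ± 0.05 and EXOSC8 and EXOSC1 at 0.49 ± 0.05 and 0.46 ± 0.06.

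Of 11 genes of 60S assembly, 9 fell. PPAN, the human relative of yeast Ssf1, was at 46.1, 48.2 and 53.8 CPM in overexpression and at 122, 147 and 114 CPM in vector (chromosome 19, 10106289 to 10111634, plus strand, hg38). The groups differed 2.59-fold with no overlap (log2 fold change -1.37 ± 0.10, SE; edgeR adjusted p = 2.76e-05). PPAN shares exons with a readthrough gene, PPAN-P2RY11, and with P2RY11, and reads could be split among the 3 rows: PPAN-P2RY11 was at 39.4, 35.5 and 27.0 CPM in overexpression and 18.8, 31.5 and 40.8 CPM in vector, and P2RY11 at 3.73, 3.44 and 7.87 CPM and 37.2, 58.4 and 11.1 CPM. Summed, the 3 rows were at 89.2, 87.1 and 88.7 CPM in overexpression and 178, 237 and 166 CPM in vector, a log2 fold change of -1.13 ± 0.12 (SE; edgeR adjusted p = 0.000164).

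BOP1, PES1 and WDR12 form the PeBoW complex, which matures the 60S precursor. WDR12 was at 51.0, 53.9 and 51.1 CPM in overexpression and at 97.3, 96.8 and 94.6 CPM in vector, with both groups tight (log2 fold change -0.89 ± 0.05, SE; edgeR adjusted p = 6.57e-06). BOP1 was at 145, 139 and 142 CPM in overexpression and at 209.9, 277 and 197 CPM in vector (-0.68 ± 0.12, SE; edgeR adjusted p = 0.00179). PES1 was at 102, 104 and 105 CPM in overexpression and at 109.7, 145 and 115 CPM in vector and was not called (-0.25, 95% interval -0.48 to -0.02; edgeR adjusted p = 0.0696). Without vector replicate 1 or 2 it was called (-0.33 and -0.12; adjusted p = 0.0304 and 0.0248), as it was with DESeq2 (-0.26; adjusted p = 0.0284) and with the GC and length offset (-0.29; adjusted p = 0.0181).

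Among the other 60S genes, RRS1, RRP1B, GNL3 (nucleostemin), BRIX1, NOP16 and NIP7 fell by 0.80, 0.72, 0.71, 0.70, 0.63 and 0.54 on the log2 scale. NOP2, a methyltransferase of 28S rRNA, was at 90.9, 92.4 and 113 CPM in overexpression and at 54.0, 102 and 102 CPM in vector. Vector replicate 1 lay far below every other library for this gene, and the difference was not called (log2 fold change 0.20, 95% interval -0.31 to 0.71; edgeR adjusted p = 0.496); without that library it was -0.05. Of 40 further 60S assembly genes tested, 28 fell and 4 rose (median -0.29), beside 23.4% and 22.6% of all genes tested. When overexpression replicate 1 or 2, or vector replicate 1 or 3, was left out, 2 rose. SURF6 averaged 52.5 CPM in overexpression and 107 CPM in vector (-1.03 ± 0.08, SE) and TEX10, of the rixosome, 39.2 and 66.6 CPM (-0.76 ± 0.05). NMD3, the export adaptor of the 60S subunit, lay at 48.2 to 50.9 CPM in overexpression and 28.5 to 29.6 CPM in vector (0.78 ± 0.06), and LAS1L, of the ITS2 endonuclease complex, had a log2 fold change of 0.46 ± 0.06.

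LYAR and MYBBP1A, a nucleolar growth regulator and a nucleolar repressor of polymerase I, both fell. LYAR was at 54.7, 51.1 and 47.5 CPM in overexpression and at 71.4, 71.5 and 66.6 CPM in vector (log2 fold change -0.45 ± 0.07, SE). MYBBP1A was at 143, 140.4 and 145 CPM in overexpression and at 175, 219 and 172 CPM in vector (-0.41 ± 0.09, SE). Neither gene had overlapping groups (edgeR adjusted p = 0.000834 and 0.00658).

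Of 78 cytosolic ribosomal protein genes, 24 fell, 12 rose and 42 were not called, with a median log2 fold change of -0.06. The share called was near the 46.1% of all genes tested, where 23.4% fell and 22.6% rose. Under the stricter filter 8791 of 14917 genes were called, a larger share, and 24 ribosomal protein genes fell and 15 rose. The 78 genes summed to 43372 to 44379 CPM in overexpression and 44273 to 50890.2 CPM in vector. RPS29 was among those that fell (log2 fold change -0.71 ± 0.06, SE), and RPL36 among those that rose (0.34 ± 0.06). The count that rose was 7 when overexpression replicate 2 or 3, or vector replicate 1 or 3, was left out and 26 without vector replicate 2. It was 22 with library totals; with the GC and length offset 38 fell and 7 rose. These genes have many processed pseudogenes, which leaves their levels uncertain. No difference between this list and the 40 members was tested.

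**Figure D5:**
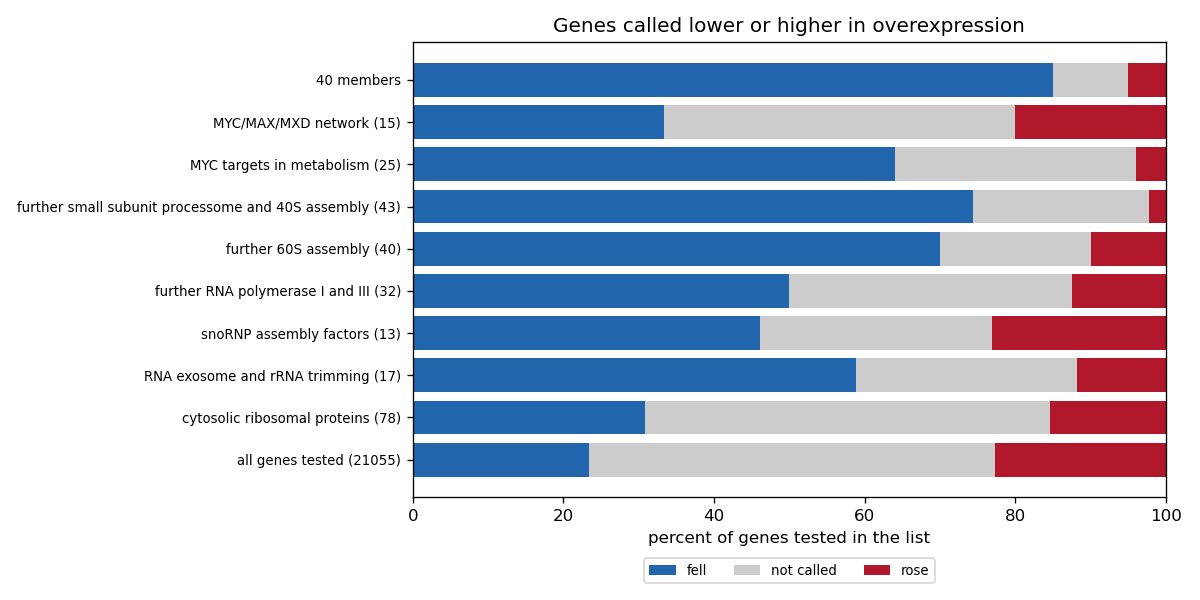
Percent of tested genes (x axis) that fell (blue), were not called (grey) or rose (red) in overexpression, for the 40 members, 8 further lists with the number tested in brackets, and all 21055 genes tested. The members fell in 34 of 40 cases and the ribosomal protein genes in 24 of 78, against 23.4% of all genes tested.

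The members lie on 18 chromosomes, and the expression of neighbouring genes was examined for each. The median log2 fold change of the 20 nearest tested protein-coding genes on either side of a member ran from -0.57 around HEATR1 to 0.43 around NOP10, with a median of -0.04 over the members. In 38 of the 40 the member's own value was below that of its neighbours. The exceptions were NOP10 and NOP58 (-0.18 against -0.54 around NOP58). MAX and NOP2, which did not fall, lay only just below theirs (0.19 against 0.20 and 0.20 against 0.22). The matching share among all genes tested was not computed. The 7 members on chromosome 2 (MYCN, POLR1A, POLR1B, NCL, NOP58, WDR43 and WDR12) had neighbours at -0.54 to -0.19. Where the neighbours were at -0.3 or lower, 7 of 8 members fell, with a median of -0.68. Where they were within 0.3 of 0, 26 of 30 fell, with a median of -0.57. The part of the neighbourhood in the changes of HEATR1, NOP10 and the chromosome 2 members was not tested.

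Counting may blur single members. In the table, 12 members share exons with a gene on the opposite strand, among them NOP14 with NOP14-AS1 and MYCN with MYCNOS, and the strand setting of the counting is not given in the sources used here. MYCNOS held 31 to 52 estimated counts per library in overexpression and 34 to 80 in vector, small beside the 423 to 501 and 1168 to 2430 counts of MYCN. Other partners held counts closer to or above those of the member. COG8 held 5685 to 6583 estimated counts in overexpression and 4455 to 7543 in vector, more in every library than the 2241 to 2967 and 3455 to 4321 of NIP7. RAD1 held 3397 to 4271 in overexpression and 3688 to 5067 in vector, beside 2472 to 2965 and 4150 to 5066 for BRIX1. HIGD2A, opposite NOP16, held 1835 to 2337 in overexpression and 1414 to 1799 in vector. RMND5B held 2063 to 2686 in overexpression and 1550 to 2612 in vector, beside 3756 to 4633 and 4671 to 7750 for NHP2. The part of such overlaps in the values of these members was not tested.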

How the data were processed

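The deposited table gives expected counts (estimated counts in whole numbers) per gene symbol for 6 libraries, without scaling to equal totals. Per the labels' protocols, total RNA was made into TruSeq libraries. The submitters' processing notes name the build hg38 and the tools DESeq2, StringTie, STAR 2.7.10a and fastp 0.23.2, with no roles; annotation release and strand setting are not given in the sources used here. A value of 4 was more frequent than 3 in every column, so 1 estimated count need not be 1 read pair, and no counting interval is given.

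Genes passing the default filter of edgeR 4.0.16 (R 4.3.3) received TMM factors, and the groups were compared in its quasi-likelihood test without covariates; adjusted p-values are Benjamini-Hochberg values over all genes tested, and standard errors and 95% intervals come from the F statistic. The script was tested on simulated data. Alternatives were DESeq2 1.42.0, limma-voom (limma 3.58.1), other scalings and filters, values divided by 4, offsets for GC content and length, a replicate block and each library left out. Summing the rows at PPAN was chosen after seeing the data.

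The members and lists were chosen with earlier results of these data known. Values in every library are given for MYC, MYCN and MAX, for the 2 called members of smallest adjusted p and the largest change in each role group, and for any called member moving against most. The other lists are shown by up to 2 risen and 2 fallen genes of smallest adjusted p, a few of which are not reported here. Values in every library of NOP58, RRP9, BOP1, PES1, NOP2, PTPRC and LAT were added after they were seen. Positions, lengths and GC content came from GENCODE 29 (GRCh38, the assembly hg38 names), which matched 40126 of 59248 symbols, and promoter sequences from RefSeq. Figures were drawn with matplotlib 3.10.9.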

Additional observations from a re-analysis of the deposited data

How the results depend on the processing

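Of 641 recomputed log2 fold changes of members, 607 kept their direction and side of the threshold, 25 lost the call, 8 gained one and 1 changed sign, that of NOP2 (-0.05 to 0.33 over the libraries left out). Under all settings run, 30 members kept direction and call. The members' median ran from -0.66 to -0.50. With library totals in place of TMM the median of all genes was 0.119, against 0.016 with TMM, and 31 members fell. The members that fell numbered 30 to 36 with 1 library left out, and those that rose 1 to 2. With no filter 1 member rose, and with the replicate block 1 rose and 33 fell, while 8690 genes were called in all against 9705. The deviations of same-numbered libraries were hardly correlated (-0.0351, 0.0217 and 0.051 for replicates 1, 2 and 3). Overexpression replicate 3 correlated best with its own number, and replicates 1 and 2 did not. With 3 libraries per group this cannot show whether the numbers pair the libraries. In the MYC network 0 rose with no filter or the replicate block. With 1 library left out, 1 to 2 of its genes fell and 0 to 1 rose, and 3 to 6 polymerase I genes fell. With library totals 1 box C/D gene and 3 snoRNP assembly factors fell, and 2 metabolic MYC targets, 3 further 40S genes and 22 ribosomal protein genes rose. Further 40S genes that rose numbered 0 with DESeq2 size factors, no filter or the replicate block and 2 with the GC and length offset, under which 38 ribosomal protein genes fell and 7 rose. Under the stricter filter 2 markers of other cell types fell and 0 rose. With 1 library left out, 1 to 3 metabolic MYC targets, 0 to 1 further 40S genes, 2 to 6 further 60S genes and 7 to 26 ribosomal protein genes rose, and 3 to 6 snoRNP assembly factors fell. The cause of these shifts was not tested. With 10 neighbours on either side in place of 20, 36 members lay below their neighbours, and MAX and NOP2 lay above theirs. Each member had at least 423 estimated counts in every library, though 1 estimated count need not be 1 read pair. With values divided by 4, 34 members fell. The 3 libraries per group limit the precision.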
